A study of Mus musculus with 74 samples.

Results

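Binding sites of epitope-tagged KRAB zinc finger proteins (KRAB-ZFPs) that lay inside genes for zinc finger proteins were collected, leaving out the large KRAB-ZFP gene clusters. A peak was taken where the midpoint of its window lay in the body of a gene whose symbol begins with Zfp, Zkscan or Zscan, outside 3 intervals of mm9 that hold the large clusters (3.5 Mb on chromosome 2, 4.5 Mb on chromosome 4 and 3.5 Mb on chromosome 13), and outside the gene of the assayed protein itself. This gave 306 of 53011 peaks, in 150 of 374 such genes, from 51 of 67 proteins. The rule uses position alone, so the enrichment, width and sequence of the peaks were free to vary. The rule drops 14 peaks of 5 proteins in their own gene, and 2 of these, from Zfp882, also lie in an annotated intron of the overlapping Zfp617 gene.

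The 67 ChIP-seq samples each held 1 protein that was stably overexpressed from an integrated vector in pooled, puromycin-resistant cells. In F9 embryonal carcinoma cells 18 proteins carried an N-terminal 3XFLAG tag (F9 FLAG), 30 a 3XHA tag (F9 HA) and 10 a 3XHA tag with reads aligned by Bowtie2 and another control ChIP (F9 HA Bowtie2). In B6 embryonic stem (ES) cells 9 proteins carried a 3XHA tag (ES HA). Each protein was assayed once, so values of single proteins have no replicate error, and intervals given for a share cover counting error only. Thresholds for calling peaks differed between samples and the depth of the libraries is unknown here, so a missing peak does not show missing binding. An overexpressed protein can also occupy sites that it would not occupy at its natural level.

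A C2H2 zinc finger is a small fold around a zinc ion that reads a few bases of DNA, and most zinc finger genes encode a row of them. The fingers are usually written in a single long last coding exon and joined by a short conserved linker peptide. In KRAB-ZFPs the array is preceded by a KRAB domain, which recruits the corepressor KAP1 (TRIM28), and many KRAB-ZFPs bind transposable elements. Earlier work by others has described KAP1 at the 3′ coding exons of zinc finger genes, so binding of one zinc finger protein to the gene of another is a question these peaks address. Not every gene named Zfp encodes such an array: Zfp36l2, for instance, encodes an RNA-binding protein with CCCH fingers.

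For several proteins the sites in zinc finger genes carried the same word of bases as the protein's sites elsewhere. For each protein with at least 5 such peaks, the 8-base word that most set its other low-copy windows apart from those of the remaining proteins was found without using the peaks in zinc finger genes, and was then looked for in them on both strands. Zfp617 gave the plainest case. Its word ACCATGAC was in 78.2% of 618 low-copy windows elsewhere, in 1.47% of the windows of other proteins, and in 6 of 6 windows in zinc finger genes. All 6 lay in introns. They are shown on the strand that reads the word, with the word in capitals and coordinates in mm9 (NCBIM37).

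Zfp106 chr2:120380647-120380702 (-): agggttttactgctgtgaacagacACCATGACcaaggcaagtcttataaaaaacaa
Zfp53 chr17:21633270-21633325 (-): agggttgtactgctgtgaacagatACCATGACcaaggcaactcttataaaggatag
Zfp644 chr5:107083961-107084016 (+): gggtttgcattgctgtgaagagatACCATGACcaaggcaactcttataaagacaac
Zfp68 chr5:139052857-139052912 (-): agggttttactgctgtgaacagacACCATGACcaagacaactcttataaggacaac
Zfp704 chr3:9586730-9586785 (+): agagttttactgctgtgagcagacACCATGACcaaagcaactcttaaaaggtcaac
Zfp809 chr9:22040312-22040367 (-): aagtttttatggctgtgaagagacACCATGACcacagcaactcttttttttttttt

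The 48 bases on both sides of the word were identical at 74.6% of positions on average over the 15 pairs of sequences (62.5% to 87.5%). The median number of exact genomic copies of the 24-base words in these windows, called the copy number here, was 1 to 8. It counts exact words only, so diverged copies of a repeat do not show in it. The study reports ORR1-type long terminal repeats as targets of Zfp617. Whether these 6 sites lie in such repeats was not tested. Zfp809, the gene of a KRAB-ZFP known for silencing VL30 retroviruses, held the peak with the highest fold enrichment over local background, 40.3 with 116 tags. The lowest of the 6 was 21.2, in Zfp68.

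The study likens the motif of Zfp961 to a retroviral primer binding site and saw repression of that site by Zfp961 in reporter assays. Zfp961 had the word GGGCGCCA, which was not compared with that motif here, in 46.9% of 1167 low-copy windows elsewhere. The word was in 0.322% of the windows of other proteins. It was in 6 of its 10 windows in zinc finger genes. The word is shown for 5 of these, in which the bases around it were identical at 28.1% of positions on average over 10 pairs.

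Zfp423 chr8:90264464-90264519 (+): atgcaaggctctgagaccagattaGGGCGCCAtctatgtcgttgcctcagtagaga
Zfp618 chr4:62793496-62793551 (-): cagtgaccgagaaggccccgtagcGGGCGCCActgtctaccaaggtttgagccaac
Zfp704 chr3:9461805-9461860 (+): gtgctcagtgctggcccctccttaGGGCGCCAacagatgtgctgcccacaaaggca
Zfp746 chr6:48034655-48034710 (+): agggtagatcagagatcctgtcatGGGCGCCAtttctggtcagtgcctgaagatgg
Zfp804b chr5:6802066-6802121 (-): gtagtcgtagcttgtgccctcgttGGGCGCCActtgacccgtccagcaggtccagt

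Gm13154 had ATTGCTGC in 38.2% of 1492 low-copy windows elsewhere, in 0.496% of the windows of other proteins and in 7 of 15 windows in zinc finger genes. Of these, 6 are shown, with 29.6% identity around the word over 15 pairs.

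Zfp1 chr8:114180238-114180293 (-): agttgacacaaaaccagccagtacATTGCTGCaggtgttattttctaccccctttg
Zfp385b chr2:77374443-77374498 (-): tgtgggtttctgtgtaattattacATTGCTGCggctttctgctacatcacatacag
Zfp385c chr11:100534594-100534649 (+): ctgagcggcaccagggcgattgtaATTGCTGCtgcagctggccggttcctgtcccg
Zfp423 chr8:90340503-90340558 (-): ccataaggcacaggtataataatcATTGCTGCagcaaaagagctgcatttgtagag
Zfp518b chr5:39066203-39066258 (-): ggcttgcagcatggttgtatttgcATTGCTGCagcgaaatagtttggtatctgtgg
Zfp609 chr9:65586452-65586507 (+): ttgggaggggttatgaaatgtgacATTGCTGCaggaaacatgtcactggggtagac

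LOC102638055 had GAATCCTC in 15.6% of 352 low-copy windows elsewhere, in 0.317% of the windows of other proteins and in 3 of 10 windows in zinc finger genes. A site in Zfp148 and a site in Zfp385b are shown, and the third lay at the start of Zscan21.

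Zfp148 chr16:33385861-33385916 (+): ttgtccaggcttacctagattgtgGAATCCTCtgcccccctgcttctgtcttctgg
Zfp385b chr2:77649410-77649465 (-): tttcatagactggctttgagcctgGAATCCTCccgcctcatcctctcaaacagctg

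Gm14406 had CAAGAAAC in 53% of its 472 low-copy windows elsewhere, in 0.583% of the windows of other proteins and in 5 of 12 windows in zinc finger genes. Over its other gene-body windows, copied sequence included, the share was 10.6%. Gm13152 had AGAGGGTC in 5 of 55, against 9.28% of its other gene-body windows. The word of Gm13225 was a run of A, present in 15 of 22 windows and in 75.1% of its other gene-body windows, but also in 7.28% of the windows of other proteins. The protein's word was in 0 of 11 windows in zinc finger genes for Gm21082 and Zfp457, 0 of 9 for Gm13235, 0 of 7 for Zfp661 and 0 of 6 for Zfp458. In other gene-body windows the shares were 4.68% for Gm21082, 13.5% for Zfp457, 9.29% for Gm13235, 11.2% for Zfp661 and 11.4% for Zfp458. With so few windows, counts of 0 say little. Zfp457, Gm13235 and Gm13251 had the same word, the repeat ACACACAC, and Zfp709 had its shifted form CACACACA. Gm13251 had its word in 1 of 20 windows and Zfp709 in 1 of 12, against 8.13% and 11% of other gene-body windows. The words of Gm14412, Gm14419, Gm14401 and Gm13247 were in 4 of 12, 1 of 11, 1 of 10 and 1 of 5. In their other gene-body windows the shares were 33%, 6.32%, 8.45% and 22.7%.

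The proteins contributed unequally. Gm13152 had the most, 55 peaks in 54 genes, or 1.06% of its 5189 peaks (95% Wilson interval 0.815% to 1.38%). It was followed by Gm13225 with 22, Gm13251 with 20 and Gm13154 with 15. Gm14406, Gm14412 and Zfp709 had 12 each, and Gm14419, Gm21082 and Zfp457 had 11 each. By share, among proteins with at least 5 such peaks, Zfp458 came first with 6 of 203 peaks or 2.96% (1.36% to 6.30%) and LOC102638055 next with 10 of 373 or 2.68% (1.46% to 4.86%). Gm13247 had 5 of 277 or 1.81% (0.773% to 4.16%), Gm13152 came next, and Zfp709 had 0.981% (0.562% to 1.71%). The intervals of Zfp458, LOC102638055 and Gm13247 overlapped, so their order is not resolved. Zfp458 peaks had high deposited false discovery rates, such as 35.42% in Zfp385b and 17.78% in Zfp521. The median over all 306 peaks was 0.145%. At the low end Gm14406, with the most peaks of any protein, had 0.211% (0.121% to 0.369%).

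**Figure D1:**
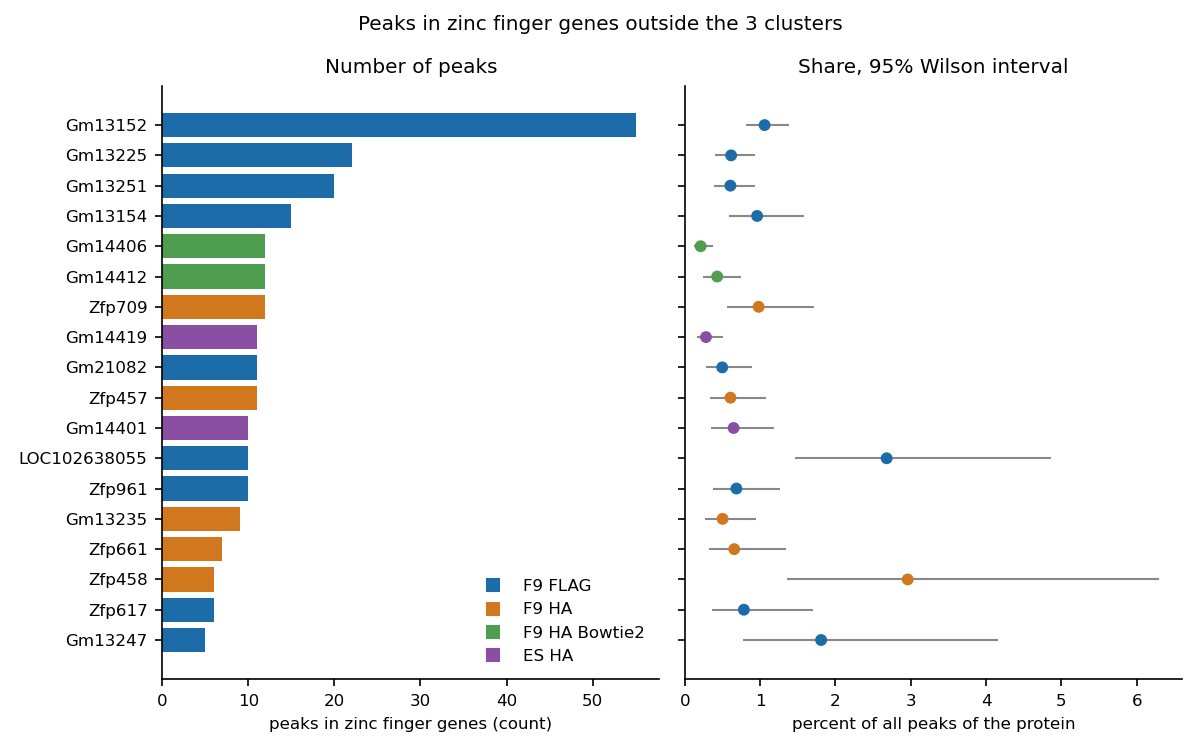
Left, the number of peaks in zinc finger genes for the 18 proteins with at least 5; right, the same as a percent of all peaks of the protein, with 95% Wilson intervals. Colours mark the 4 setups; Gm13152 leads in number with 55, and Zfp458 and LOC102638055 lead in share with 2.96% and 2.68%.

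None of the peaks of 16 proteins lay in these genes. They had 52 to 550 peaks, and a count of 0, taken as an upper limit of 3 peaks, allows a share of up to 0.545% for Gm13051, the largest of them, and up to 5.77% for the smallest. Between the F9 FLAG and F9 HA samples, the mean share was 0.875% ± 0.815 (SD, n = 18) and 0.747% ± 0.638 (SD, n = 30), and the difference of 0.128 percentage points was well within the spread (two-sided permutation test, p = 0.547). Since no protein carried both tags, the tag and the set of proteins cannot be told apart. The median share was 0.236% for the 10 F9 HA Bowtie2 samples and 0.289% for the 9 ES HA samples, whose control and thresholds differed as well.

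Taken without regard to length, zinc finger genes held peaks about as often as protein-coding genes as a whole. A peak lay in 150 of the 374 zinc finger genes (40.1%), against 25.9% of all 36981 annotated genes and 38.7% of 22205 protein-coding genes outside the 3 intervals. Peaks of at least 2 proteins lay in 61 (16.3%), against 12.3% of all genes and 18.9% of protein-coding genes. These shares count annotation entries and leave out genes that reach into an interval, such as Zfp831. Genes over 100 kb held a peak in 21 of 22 cases among zinc finger genes and in 89.9% of the other protein-coding genes, and genes of 30 to 100 kb in 25 of 45 cases and 63.6%. For genes of 10 to 30 kb it was 78 of 187 zinc finger genes (41.7%) against 37.6% of the others. In the shortest class, up to 10 kb, it was 26 of 120 zinc finger genes (21.7%) against 11.4% of the others, but the zinc finger genes of this class were longer, with a median of 5.73 kb against 3.19 kb. Per length, there were 28.9 peaks per Mb of zinc finger gene body and 20.6 per Mb of all gene body. Without Gm13152 these were 23.7 and 17.7.

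**Figure D2:**
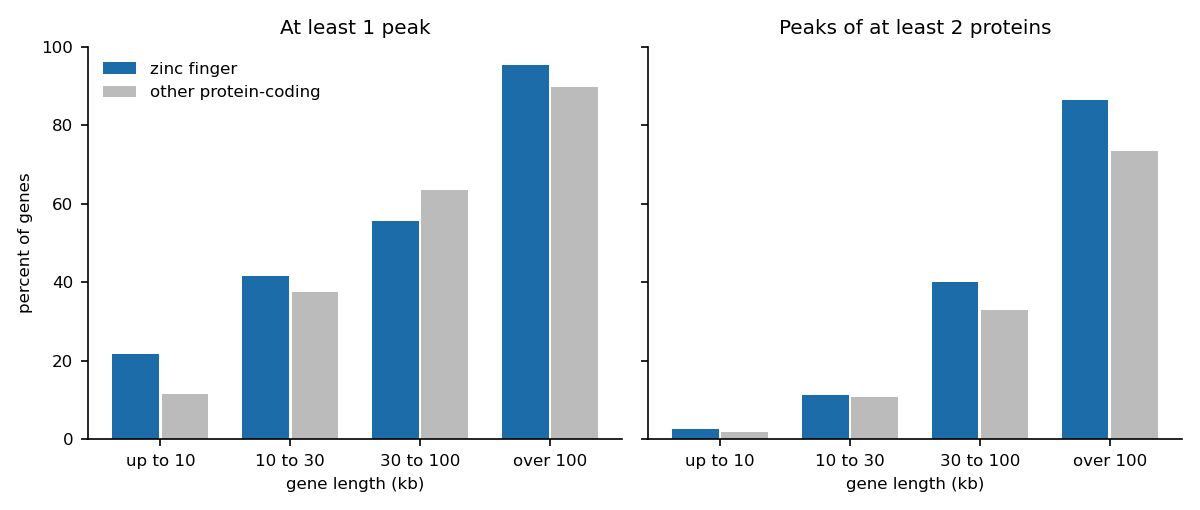
Percent of zinc finger genes (blue) and of other protein-coding genes (grey) that held at least 1 peak (left) or peaks of at least 2 proteins (right), by gene length in kb. The share rose with length in both sets, to 95.5% and 89.9% of genes over 100 kb with at least 1 peak.

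On the study's own list of KRAB-ZFP genes were 185 of the 374 genes, of which 57 (30.8%) held a peak, against 93 (49.2%) of the 189 other zinc finger genes. The former held 96 of the peaks and the latter 212, with 2 peaks counted in both. Median gene length was 15.1 kb on the list and 12.7 kb off it, but all peak-holding genes over 100 kb were off the list. The part of gene length in the contrast of shares was not tested. The median fold of the peaks was 23.2 in listed genes and 23.6 in the others. Within the 11 proteins that had at least 3 peaks in each class, the median log2 fold was higher in KRAB-ZFP genes by 0.10 ± 0.37 (SD, n = 11), in 7 of 11 proteins, which did not pass (two-sided sign-flip permutation test, adjusted p = 0.585).

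By annotation, 224 of the peaks (73.2%) lay in introns of the zinc finger gene, 39 (12.7%) in coding exons, 26 (8.50%) in 5′ UTRs, 13 (4.25%) in 3′ UTRs and 4 in other exons. Taken over all peaks, coding exons held 12.7% of the peaks in zinc finger genes and 6.22% of the 21496 other gene-body peaks, and positions within 1 kb of a transcript start 23.9% and 19.3%. Gm13152, whose gene-body peaks lay mostly at starts, carried much of the second: 39 of its 55 peaks in zinc finger genes and 64.3% of its other gene-body peaks lay within 1 kb of a start. Without it the values were 13.5% and 12%, and those for coding exons 9.56% and 4.34%.

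Proteins, not peaks, are the samples here, so each protein's peaks in zinc finger genes were set against its other gene-body peaks, for the 18 proteins with at least 5 of each. None of the 6 measures passed over proteins. Fold enrichment differed by 0.02 ± 0.20 on the log2 scale (SD, n = 18; two-sided sign-flip permutation tests, adjusted p = 0.698). The coding exon share was higher by 5.64 ± 14.3 percentage points, but in only 8 of 18 proteins (permutation, adjusted p = 0.236). The share of windows in sequence of 10 or more copies was lower by 5.87 ± 8.83 points, in 13 of 18 proteins, with an unadjusted p = 0.0098 and an adjusted p = 0.0686 by the same permutation test. The share near transcript starts was higher by 2.01 ± 11.8 points (permutation, adjusted p = 0.698), and the log10 of the called width by 0.02 ± 0.07 (permutation, adjusted p = 0.469). Against all other peaks of the protein, intergenic ones included, 3 of these differences passed: coding exons by 8.64 points, sequence of 10 or more copies by -11.0 points and transcript starts by 6.49 points (permutation, adjusted p = 0.0248, 0.00354 and 0.0236). That comparison also sets peaks in genes against peaks outside genes.

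**Figure D3:**
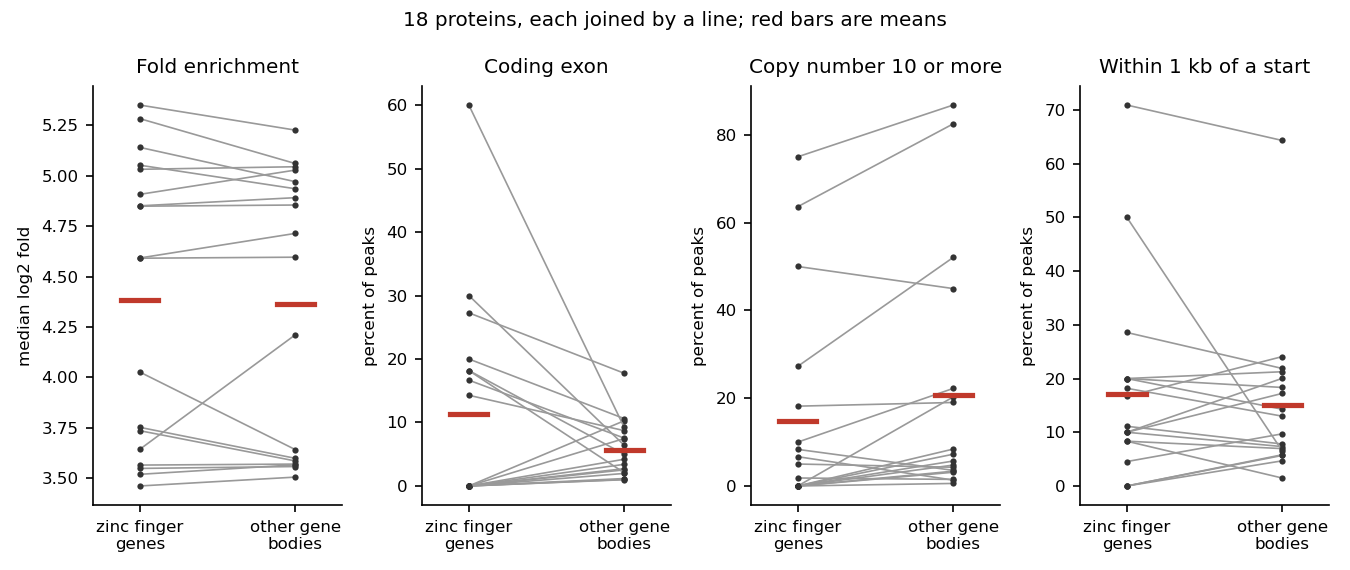
Median log2 fold enrichment and the percent of peaks in coding exons, in sequence of 10 or more copies and within 1 kb of a transcript start, for the peaks of 18 proteins in zinc finger genes and in other gene bodies. A line joins the values of 1 protein and red bars are means; the mean share in coding exons was 11.4% against 5.73% and that of copied sequence 14.8% against 20.6%, with lines running both ways in each panel.

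Coding exon peaks came from 14 proteins. Of the 39 coding exon peaks, 15 came from Gm13152. Gm13247 had 3 of its 5 peaks there, Gm14401 3 of 10, and Zfp961, Gm21082, Gm14412 and Gm14419 each had 2. Among proteins with fewer than 5 peaks, 2610305D13Rik had 2 of 2, Zfp429 2 of 3 and the Zfp810 library 2 of 4. Among other gene-body peaks the coding exon share was 17.8% for Gm13152, 9.24% for Gm13247 and 6.42% for Gm14401. Gm13154, Gm13225, Gm13251, Gm14406, Zfp709 and Zfp457, with 11 to 22 peaks each, had 0. Their coding exon shares among other gene-body peaks were 0.985% (Gm14406) to 4.21% (Zfp709), except for Gm13154 with 10.3%. With so few peaks per protein, these counts of 0 say little. The last coding exon held 31 of the 39 peaks (79.5%), against 26.8% of the coding exon peaks among the other gene-body peaks. Zinc finger genes usually keep their finger codons in the last coding exon, and the part of exon length in this share was not tested. The other gene-body peaks include the 14 in genes of the assayed proteins and 12 in zinc finger genes of the 3 intervals.

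Of the 39 windows, 11 held the codons of the finger linker with the third position of each codon open, searched on both strands. The last codon was matched by its first 2 bases, which makes 14 bases in all. Among the 1336 other gene-body windows in coding exons, 3 held the same letters (0.225%). Over windows of all regions it was 11 of 306 in zinc finger genes and 12 of the 21496 other gene-body windows. Of these 12, 2 were in the gene of the assayed protein. As the genes were chosen as zinc finger genes, a linker in their exons is no finding in itself, and the difference within proteins of 3.83 ± 8.38 points did not pass (two-sided sign-flip permutation test, n = 18, adjusted p = 0.221). The copy number of these 11 windows was 1, so the reads were not shared among the many related finger exons as far as exact 24-base words tell. The sequences below show linkers under the peaks on the strand of the gene, with the linker codons in capitals, to show how alike these exons are between genes. The first of each pair of Zfp11 and Zfp316 sequences came from Gm13150 and Gm13247 and the second from Gm14401 and Gm21082; those of Zfp760 and Zfp94 came from Gm14401 and that of Zfp787 from Gm13152.

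Zfp11 chr5:130163824-130163892 (-): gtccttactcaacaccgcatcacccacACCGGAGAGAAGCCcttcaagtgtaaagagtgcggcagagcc
Zfp11 chr5:130163068-130163136 (-): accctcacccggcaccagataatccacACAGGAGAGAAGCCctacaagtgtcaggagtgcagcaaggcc
Zfp316 chr5:144016727-144016795 (-): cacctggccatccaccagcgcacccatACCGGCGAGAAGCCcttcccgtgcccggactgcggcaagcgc
Zfp316 chr5:144015290-144015358 (-): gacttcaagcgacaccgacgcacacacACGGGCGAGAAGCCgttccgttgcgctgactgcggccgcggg
Zfp760 chr17:21859476-21859544 (+): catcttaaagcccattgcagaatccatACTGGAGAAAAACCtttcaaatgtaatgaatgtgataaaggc
Zfp787 chr7:6084463-6084531 (-): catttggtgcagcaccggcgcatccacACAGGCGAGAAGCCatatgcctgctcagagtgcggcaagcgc
Zfp94 chr7:25088438-25088506 (-): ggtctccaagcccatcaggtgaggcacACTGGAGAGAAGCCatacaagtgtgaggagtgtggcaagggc

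Gm14401 thus had a peak on the finger exons of 3 genes, with folds of 8.49 in Zfp11, 10.9 in Zfp760 and 11.1 in Zfp94. It was called in ES cells against input alone and with no minimum fold. Gm13150 had a peak in Zfp11 with a fold of 21.3 and a deposited false discovery rate of 27.54%, at another linker of the same exon.

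Windows overlapping by at least 25% were joined into loci, and 20 of the 280 loci in zinc finger genes (7.14%) were called in 2 or more proteins, against 6.95% of all gene-body loci. In 5 loci at least 3 proteins were called. A pair of them lay in finger exons. In the last coding exon of Zfp316, a KRAB-ZFP gene, chr5:144015242-144015538 was called in 4 proteins, with folds of 37.3 in Gm13152, 28.5 in Gm13247, 20.0 in Gm21082 and 14.4 in 2610305D13Rik. In the last coding exon of Zfp777, also a KRAB-ZFP gene, chr6:47974733-47975009 was called with folds of 47.4 in Zfp58, 32.7 in Gm13152, 16.3 in Gm13247 and 14.4 in 2610305D13Rik. Both loci thus had Gm13152, Gm13247 and 2610305D13Rik, all F9 FLAG samples, which share their input and control ChIP. The part of that shared setup in the 2 loci was not tested. A 200 bp window of each is shown, from Gm13247 and from Zfp58, on the strand of the gene.

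Zfp316 chr5:144015339-144015538 (-): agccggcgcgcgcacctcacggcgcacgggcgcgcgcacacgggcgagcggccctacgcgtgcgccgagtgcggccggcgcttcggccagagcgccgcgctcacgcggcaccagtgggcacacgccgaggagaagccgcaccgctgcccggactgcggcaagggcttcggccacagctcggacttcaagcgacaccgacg
Zfp777 chr6:47974757-47974956 (-): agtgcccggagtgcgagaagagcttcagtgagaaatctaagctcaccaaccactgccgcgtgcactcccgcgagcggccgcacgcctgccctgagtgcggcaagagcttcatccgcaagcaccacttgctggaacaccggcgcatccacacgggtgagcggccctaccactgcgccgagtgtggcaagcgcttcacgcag

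Zfp316 held 2 further peaks in the same exon, 1 of Gm13247 with a fold of 18.3 and 1 of Gm21082 with a fold of 32, so that all 6 of its peaks were in the finger exon. At 20.3 kb it was the shortest of the 10 genes with the most peaks. Gm13152 had a further peak in Zfp777, 283 bp from a transcript start, with a fold of 20.9.

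The other 3 loci lay in introns of genes outside the KRAB-ZFP list. In Zfp277, chr12:41050818-41051042 was called in Gm13145 with a fold of 26.9, in Zfp872 with 22.4, in Zfp457 with 13.8 and in Gm13235 with 11.8, with midpoints within 25 bp. In Zfp462, which encodes a large nuclear zinc finger protein, chr4:55043168-55043428 was called in Zfp874b with a fold of 21.5, in Gm13235 with 18.3, in Zfp458 with 14.7 and in Zfp709 with 10.4. In Zfp407 a single-copy locus was called in Gm13251 with a fold of 24, in Gm13235 with 13.5 and in Zfp709 with 11.8. Gm13235 was in all 3. The deposited false discovery rate of the Zfp458 peak in Zfp462 was 30.65%. The 4 proteins at Zfp277 and the 4 at Zfp462 were all F9 HA samples, which share their input and control ChIP, and the part of the shared setup in these loci was not tested. The windows of Gm13145 in Zfp277 and of Zfp874b in Zfp462 are shown on the strand of the gene; both had a copy number of 1.

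Zfp277 chr12:41050819-41051018 (-): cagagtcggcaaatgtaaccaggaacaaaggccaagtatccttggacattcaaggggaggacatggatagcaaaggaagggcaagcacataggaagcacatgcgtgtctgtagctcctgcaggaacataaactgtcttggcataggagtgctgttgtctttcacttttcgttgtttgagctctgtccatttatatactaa
Zfp462 chr4:55043168-55043367 (+): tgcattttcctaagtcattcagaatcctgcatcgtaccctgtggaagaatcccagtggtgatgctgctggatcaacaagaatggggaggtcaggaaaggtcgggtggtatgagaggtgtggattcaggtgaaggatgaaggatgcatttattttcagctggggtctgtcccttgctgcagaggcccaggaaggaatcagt

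The genes with the most peaks were mostly long. Zfp277 led with 11 peaks of 10 proteins over 131 kb. Beside the 4 at the shared locus, Gm13152 had a peak 89 bp from the transcript start with a fold of 85.4 and 197 tags. A further 4 peaks, of Gm14401, Gm14419, Gm21082 and Gm8898, lay between 28.9% and 33.3% of the way along the gene in sequence with copy numbers of 1057 to 1341, and their folds ran from 8.33 to 46.9. A peak of Gm14406 in an intron had a copy number of 8340. Reads of such sequence were placed at 1 of many equal positions, so the gene of origin of these 5 peaks is uncertain.

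Zfp385c and Zfp407 held 8 peaks each. In Zfp385c, 4 of them, of Gm14419, Gm21082 (2) and Gm8898, were in sequence of 862 to 2123 copies, while in Zfp407 all 8 were in single-copy sequence. Zfp385b, Zfp462, Zfp536 and Zfp644 held 7 each. Zfp536, a gene of 451 kb known for its part in neuronal differentiation, had them at 7 separate loci from 6 proteins with folds of 7.48 to 25.6. Zfp644 had its highest fold, 51.8, at a transcript start in Gm13152. Zfp316 and Zfp704 held 6 each, and Zfp106, Zfp13, Zfp423, Zfp438 and Zfp777 held 5 each. Zfp423, a regulator of neural and fat cell precursors, held intron peaks of Gm13154, Gm13225, Gm14401, Zfp961 and Zkscan17 at 5 loci, with folds from 10.1 in Zkscan17 to 49.4 in Zfp961. In all, 90 genes, here counted by symbol, held a single peak.

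**Figure D4:**
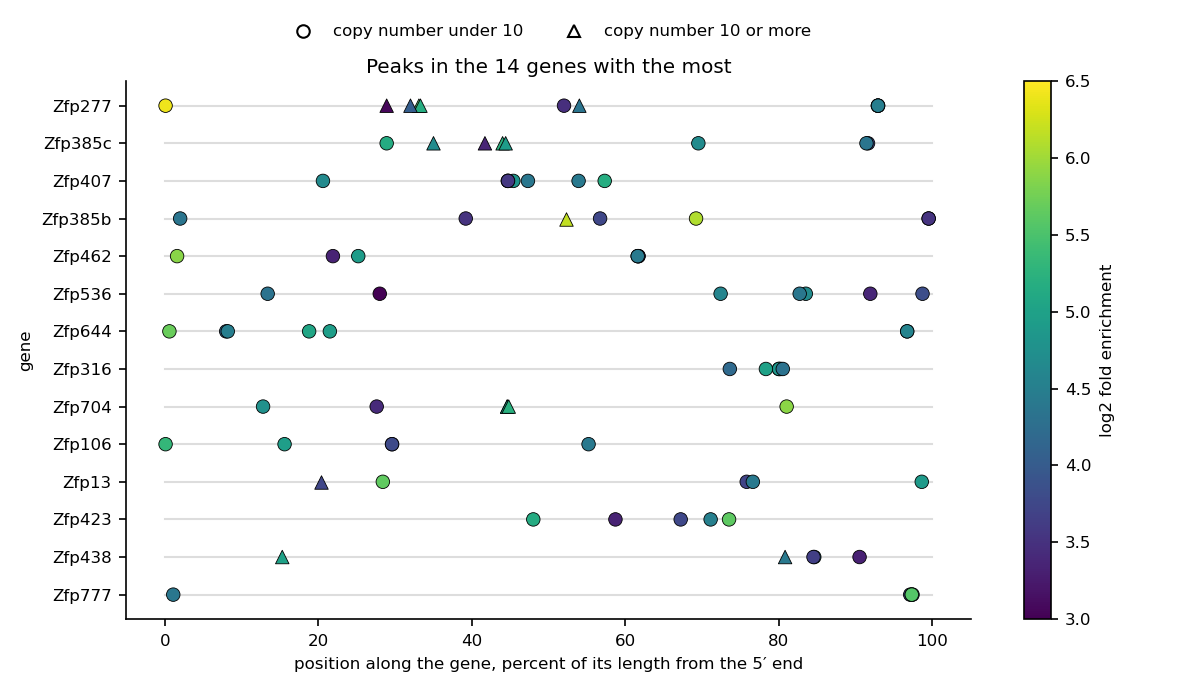
Positions of the peaks in the 14 genes with the most, as percent of the gene's length from its 5′ end; colour gives the log2 fold enrichment and triangles mark windows of copy number 10 or more. Points that fall together are shared loci, such as those at 92.9% of Zfp277, 80.0% of Zfp316 and 97.3% of Zfp777.

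The 10 highest folds lay in introns (7), coding exons (2) and a 5′ UTR. LOC102638055 had the highest, 151.0 with 219 tags, 21 bp from a start of Zscan21 in its 5′ UTR, and Gm14412 was called at the same locus, with its window midpoint just outside the gene, at 63.7. Gm13152 followed with 145.4 in an intron of Zfp467, 207 bp upstream of the nearest of the gene's transcript starts. LOC102638055 had 116.0 in an intron of Zfp961. Gm13154 had 100.6 in Zfp518b, at the site shown above, and 74.5 in Zfp532. Gm14412 had 72.8 in Zfp385b, in sequence of 1016 copies. Gm13152 had 85.4 in Zfp277 and 71.8 in Zfp605, and Zfp961 had 68.7 in Zfp746. The coding exon peaks were those of Gm13152 in Zfp277, near its start, and of the Zfp810 library in Zfp961, with 70.4. Over all 306 peaks the median fold was 23.4 (quartiles 13.9 and 33.2), and over the other gene-body peaks 22.4 (13 and 32). Folds follow each sample's own threshold and control, so their order across proteins is a description.

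Of 27 better known zinc finger genes listed for this purpose, 11 held a peak and 16 did not, a share close to the 40.1% of all 374 zinc finger genes. Zfp809 had the Zfp617 peak above and a Zfp961 peak with a fold of 20.8. Zfp36l2 had 3 peaks, with folds of 36.4 and 29.99 in Gm13152 and 12.2 in Gm14419. Zfp335 had 1 of Gm13152 at 39.1 and 2 of Zfp661 at 46.6 and 29.97. Zfpm1 and Zfpm2, cofactors of GATA factors, had 2 and 4; those of Zfpm2 included a Gm14412 peak in sequence of 28864 copies. Zfp521, a paralog of Zfp423, had 3, and Zfp703 had 1, of Gm14412 in a coding exon with a fold of 20.8.

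Some of the genes encoded proteins that were themselves assayed. Zfp599 had a Zfp458 peak in its 3′ UTR with a fold of 16.7 and an intron peak of Gm14393 with a fold of 11.5. The authors' false discovery rate was 33.33% for the Zfp458 peak and had a median of 100% for Gm14393. Zfp46 had a Gm13152 peak in its 3′ UTR with a fold of 39.99. Zkscan17 had intron peaks of Gm13251 and Zfp709 at the same locus, with folds of 21.4 and 14.8. Zfp961 had 4 peaks, more than any other gene of an assayed protein.

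The peaks of the Zfp810 library in Zfp961 stood apart. They lay in coding exons, at the positions of the peaks that Zfp961 had in its own gene. The larger Zfp810 peak was called over 1097 bp with 291 tags, a score of 3100 (10 times the negative log10 of the p-value) and a fold of 70.4, and no peak of that library had a higher score. It ran from 16856 to 17953 bp downstream of the gene's 5′ end, while the coding exon there runs from 16861 to 17938 bp. The smaller, with 26 tags, had a fold of 47.7 and lay over another coding exon. In the Zfp961 library the peaks at the same exons had 459 and 37 tags and folds of 84.2 and 42.8, with midpoints 24 and 8 bp away. These were the only loci shared by both libraries, 0.823% of the 243 of Zfp810 and 0.137% of the 1457 of Zfp961.

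**Figure D5:**
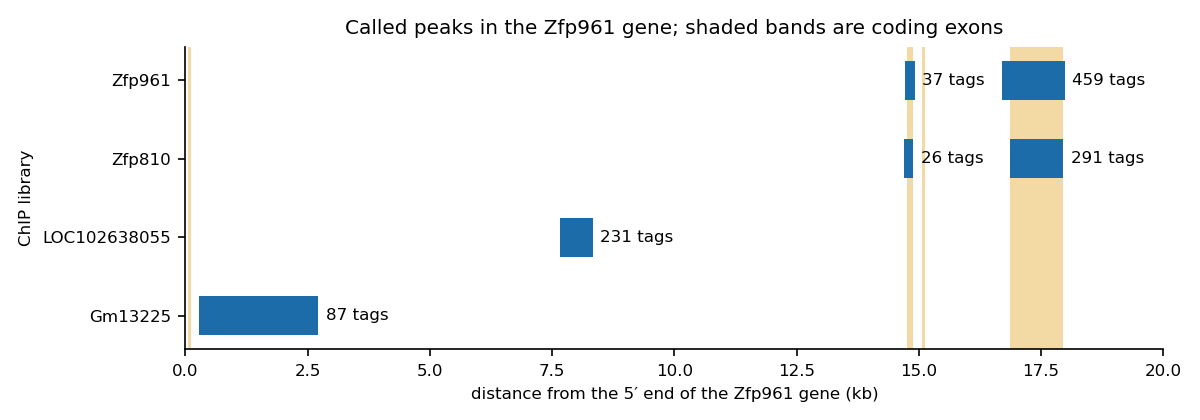
Called peaks (bars, with their tags) of 4 libraries in the first 20 kb of the Zfp961 gene, against the distance from its 5′ end in kb; shaded bands are coding exons. The peaks of Zfp810 and Zfp961 cover the same coding exons, while those of LOC102638055 and Gm13225 lie in introns.

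The pattern resembled that of peaks in the proteins' own genes, which the rule leaves out. There were 14 such peaks, all in coding exons, from Zfp46, Zfp617, Zfp882, Zfp961 and Zkscan17. Per the study, 8 of the 67 open reading frames were not codon-optimized, and these 5 were among the 8. The other 3 were Zfp458, Zfp709 and Zfp810, whose libraries had 0 peaks in their own gene, and of the 55 codon-optimized proteins whose gene was found in the annotation 0 had one. A vector insert that keeps the natural bases can give reads that align to the coding exons of the gene. Whether the Zfp810 library holds Zfp961 sequence of this kind was not tested. Without Zfp810, 302 peaks in 149 genes and 37 coding exon peaks remained, and 17 loci were shared.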

How the data were processed

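Peaks of KRAB-ZFP ChIP-seq samples were taken from a table that the authors deposited. Per the labels and the study's methods, the authors aligned reads to mm9 with Bowtie or Bowtie2, placing a read with several equal positions at 1 of them pseudo-randomly, called peaks per sample with MACS 1.4.2, and set each window to 200 bp around the summit. The controls were input together with the matching tag control ChIP for F9 FLAG and F9 HA, a Gm14296 control alone for F9 HA Bowtie2, and input alone for ES HA. The deposited tags are a raw count, the deposited score is 10 times the negative log10 of a p-value, the deposited fold enrichment is a ratio, and the deposited false discovery rate is a percent. Widths and positions are in base pairs. Of 53255 peaks, 244 under 1 name that matches no label were not used, and 1 labelled protein matched no name.

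Window midpoints were placed in gencode vM1 genes of NCBIM37, the assembly behind mm9. The copy number of a window is the median exact count of its 24-base words in the genome. Members and gene lists were chosen with earlier results of these data known. Proteins were compared by two-sided sign-flip or label permutation tests (100000 resamples; scipy 1.17.1), with Benjamini-Hochberg adjustment over the 7 within-protein comparisons; the scripts were tested on simulated data. Genes named were the 10 with the most peaks, the 10 with the most proteins, those of the 10 highest folds, those of assayed proteins and a written list; loci named were those with at least 3 proteins. The words of 8 bases were searched after the data were seen. Alternatives covered the peak thresholds, gene biotype, the comparison set, single proteins and the definitions of copy number, start distance and shared locus. The single samples give no replicate error, and p-values measure the spread between proteins.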

Additional observations from a re-analysis of the deposited data

Results flagged for a closer look

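A signal stood in peaks that the rule leaves out: 14 peaks lay in coding exons of the gene of the assayed protein itself. This is above the limit of 3 peaks set for a flag. The 14 peaks stayed among the other gene-body peaks of the comparisons. They came from 5 proteins, all among the 8 whose open reading frames were not codon-optimized. Among the percent shares of the F9 HA Bowtie2 and ES HA samples, the setups small enough for Dixon's test, no sample was far enough from the others to be singled out.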

How the results depend on the processing

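With only peaks of a score over 100 and a fold over 20, 201 peaks in zinc finger genes were left, in 33 proteins and with 11 shared loci. The direction turned for 4 values, none of which passed in either form. With at least 10 peaks per protein, fold enrichment differed by -0.023, the share near transcript starts by -1.33 points and, with at least 5 peaks per class, fold enrichment in KRAB-ZFP genes by -0.0209. Against all other peaks, fold enrichment differed by -0.0029. In that comparison the differences in coding exons (8.64 points), multi-copy sequence (-11.0 points) and transcript starts (6.49 points) passed, as given above. The other 49 values computed for main results kept their direction and their call, or stayed within 1.5 times of the main count. Without Gm13152, 24 of 251 peaks lay in coding exons. Leaving out Zfp810 or Gm13152 from the counts, and keeping the 2 Zfp882 peaks that lie in the Zfp617 annotation, were chosen after seeing the data; the last gave 308 peaks. The alternative of using deposited summits gave no separate value, since windows are centred on them. No paired analysis was possible because each protein had 1 sample, so samples of different proteins share no replicate; the within-protein comparisons set peaks of the same sample against each other. Low numbers of peaks per protein, 5 to 55, limit each within-protein share.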
